A study of Homo sapiens with 6 samples.

Results

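The experiment described here asks which transcripts differ when p63 is raised in SiHa cells, and it holds 2 of the 6 samples of the series. It was taken as all rows of the deposited SiHa table, with the overexpression library set against the vector library. SiHa is an established human cervical squamous carcinoma line that carries human papillomavirus. Both are total RNA libraries of cells kept in DMEM with fetal bovine serum, penicillin and streptomycin, within a common range of passages, the one labelled vector and the other overexpression. The sources used here do not give the p63 isoform, the promoter that drives it, or whether the cells were a clone or a pool. The remaining samples are RNA from ME-180 cells, another cervical carcinoma line, with a control or a p63 knockdown, and a p63 chromatin immunoprecipitation with its input from ME-180.

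The protein p63, made from TP63, binds DNA through a domain closely related to that of p53. It keeps the basal layer of stratified epithelia in its proliferating, adherent state, and it is known to act on the genes of basal keratins, hemidesmosomes and desmosomes. Its delta N isoforms lack the N-terminal activation domain of the TA isoforms and predominate in squamous epithelium.

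The SiHa table held 16600 transcript rows of 9490 gene names, with 14207637 counts for the vector library and 13690639 for the overexpression library. Levels are counts scaled to a library total of 1000000 (CPM), and each gene is represented by its row with the highest summed CPM. Ratios are log2 of CPM plus 1, overexpression over vector, which shrinks the ratios of low genes. There was 1 library per group, so nothing was tested: genes are described by size, and 95% intervals cover counting error only. The 6996 genes that reached 1 CPM in at least 1 library are called genes at the floor, and of these 92.1% lay within 1.5-fold of no difference and 68.5% within 1.2-fold. The median log2 ratio was -0.05, with 5% of genes below -0.62 and 5% above 0.40. The low genes spread most, from -0.80 to 0.56 between the same percentiles at 1 to 10 CPM against -0.31 to 0.28 at 100 to 1000 CPM.

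Genes at the floor whose log2 ratio reached 2-fold in size are described as higher or lower. By this rule 40 genes were higher, 0.572% of the 6996, and 52 were lower, 0.743%, together 1.32%. All 92 had a counting interval that excluded an equal level, but the whole interval lay beyond 2-fold for 30 of the 40 and 23 of the 52. Only 20 of the higher and 22 of the lower genes reached 100 counts in a library. Of the 40 higher genes, 17 had under 1 CPM with the vector, and 20 of the 52 lower genes had under 1 CPM with overexpression, so these were at the floor through 1 library alone. The threshold runs through a continuous range: CDH3 at 1.01 and PGAM2 at -1.01 are just inside it, and TGM1 at 0.98 and ATF3 at -0.99 just outside.

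**Figure D1:**
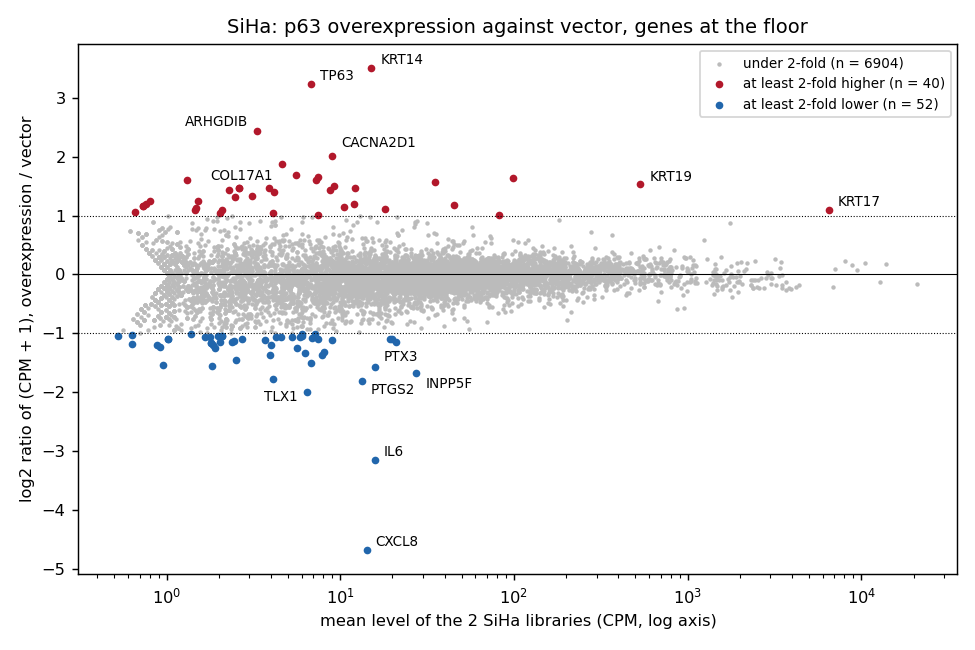
Log2 ratio of CPM plus 1 (overexpression over vector, y axis) against the mean level of the 2 SiHa libraries in CPM (log x axis) for 6996 genes at the floor. Dotted lines mark 2-fold. The 40 higher and 52 lower genes lie mostly at low levels, with KRT17 and KRT19 as the highly expressed exceptions among those called.

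TP63 itself was at or near 0 in the vector library and low in the overexpression library. The 5 TP63 rows of the table overlap and share reads, so they are not independent and do not show which isoform was expressed. The delta N alpha row NM_001114980.1 had 7 counts in the vector library against 179, a ratio of 26.5 (95% interval 12.6 to 67.0). The delta N beta row NM_001114981.1 went from 8 to 177 counts and the delta N gamma row NM_001114982.1 from 0 to 117. The TA beta row NM_001114978.1 had 7 and 142 counts, and the TA gamma row NM_001114979.1 had 1 and 95. All 5 rows were higher with overexpression, and the highest reached 13.1 CPM.

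Keratins of the basal layer, which pair into the filaments that basal keratinocytes anchor to the matrix, were the most prominent group of higher genes. In each pair of counts that follows, the vector library comes first. KRT14 had 23 and 392 counts, a ratio of 17.7 (11.6 to 28.2), and its pairing partner KRT5 had 247 and 730, a ratio of 3.07 (2.65 to 3.56). KRT15, a further basal keratin, had 679 and 2063 counts. KRT17, made in basal and stressed keratinocytes, went from 58740 to 120878 counts, a ratio of 2.14 (2.11 to 2.16). It was by far the most abundant gene called, at 4134 CPM with the vector and 8829 with overexpression. Keratin genes have close paralogs and pseudogenes, so their counts can include reads of copies.

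The anchors of the basal layer split by component. COL17A1, the transmembrane collagen of hemidesmosomes, had 20 and 107 counts, a ratio of 5.55 (3.42 to 9.45). ITGB4, the hemidesmosome integrin subunit, had 88 and 204 counts, and its 3 rows had ratios from 2.41 to 2.74. LAMB3, a chain of the laminin those receptors bind, was higher by a smaller margin with 858 and 1206 counts. ITGA6, the partner of ITGB4, was lower with 1100 and 859 counts, as was the anchoring fibril collagen COL7A1 with 5145 and 3801. DST, the plakin that links keratins to hemidesmosomes, had 36 and 76 counts.

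Over the whole list of basal keratins and anchors, 17 of 17 genes were at the floor. Of these 6 were at least 2-fold higher and 0 lower, beside 0.572% and 0.743% of all genes. The list's median was 0.33, beside -0.05 for all genes. For shifts of under 2-fold a second rule was used: at least 1.2-fold, with 100 counts in a library and a counting interval on 1 side of an equal level. It called 355 of 5122 genes higher, 6.93%, and 779 lower, 15.2%. With scaling by trimmed means (TMM), which moved all ratios up by 0.04, the same rule called 513 and 608, so the share of higher genes among those called went from 31.3% to 45.8%. In the basal list 9 of 15 genes with 100 counts were higher by this rule and 2 lower.

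Keratins of other epithelial types were also higher. The simple epithelial keratins KRT8 and KRT18, which pair in glandular and most carcinoma cells, went from 17627 to 31141 and from 14170 to 20499 counts, log2 ratios of 0.87 and 0.59. KRT19, of simple and transitional epithelia, went from 3904 to 10868, a ratio of 2.89. KRT80 had 121 and 227 counts, while KRT81, a hair keratin, was lower with 100 and 48. Of 26 keratin genes with a row, 14 were at the floor and 12 of these lay above the median of all genes, where 50% of all genes lie by definition. Their median log2 ratio was 0.93.

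Some genes of suprabasal squamous layers were higher, and others were nearly level. KRT13 and KRT4, the pair of suprabasal keratins in mucosal epithelium, had 85 and 252 and 139 and 275 counts. TGM1, the transglutaminase that crosslinks the cornified envelope, had 54 and 116 counts. S100A9 and S100A8, which form the calcium-binding calprotectin dimer, had 98 and 235 and 18 and 48 counts. By contrast the envelope proteins EVPL, with 1806 and 1825 counts, and PPL, with 6971 and 6738, were nearly level. Of 37 squamous differentiation genes 20 had a row and 12 were at the floor, with 11 of 12 above the median of all genes. Of the 12, 2 were at least 2-fold higher and 0 lower, beside 0.572% and 0.743% of all genes. By the 1.2-fold rule 4 of 8 were higher (50%) and 0 lower, beside 6.93% and 15.2% of all genes. The list's own median was 0.53. The S100 genes were at the floor in 7 of 9 and all 7 lay above the median of all genes, with S100A10 at 10174 and 13151 counts. The name search behind that family also took S100PBP, a binding partner, at 0.02.

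Genes that mark epithelial cells as such lay above the median of all genes, mostly by less than 2-fold. CDH3, the P-cadherin of basal cells, was at 770 and 1506 counts the member called, a ratio of 2.03. EHF, an epithelial ETS transcription factor, had 315 and 565 counts, and its relative ELF3 had 554 and 759. The surface glycoprotein MUC1 had 413 and 584 counts. SPINT1, a protease inhibitor, had 235 and 257. Of the 25 genes of the epithelial identity list 11 were at the floor, and 11 of 11 lay above the median of all genes, with a median of 0.37, the lowest at 0.17 and the highest at 1.01. By the 1.2-fold rule 7 of 10 were higher (70%) and 0 lower, beside 6.93% and 15.2% of all genes.

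Mesenchymal genes did not move as 1 group. ZEB2, a repressor of epithelial genes, had 120 and 49 counts, and FN1, fibronectin, had 87 and 33. CDH2, N-cadherin, was lower at 122 and 65 counts, and COL1A1 at 331 and 194. POSTN, periostin, had 1 and 20 counts in its leading row. Over 18 genes at the floor the median was -0.01 and 10 lay above the median of all genes. By the 1.2-fold rule 5 of 13 were lower (38.5%) and 3 higher (23.1%), beside 15.2% and 6.93% of all genes.

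Genes that the literature names as p63 targets went in both directions. At the floor, 4 of 36 were at least 2-fold higher, beside 0.572% of all genes, and 0 lower, beside 0.743%. The 4 were KRT14, COL17A1, KRT5 and ITGB4. By the 1.2-fold rule 10 of 24 were higher (41.7%) and 7 lower (29.2%), beside 6.93% and 15.2% of all genes. The list's median was 0.11. CD44, the hyaluronan receptor, had 442 and 529 counts and IGFBP3, a secreted carrier of growth factors, 832 and 978. CHUK, an IkB kinase needed for epidermal differentiation, had 1053 and 729 counts, and JAG2, a Notch ligand, 1150 and 878. The basal keratin and anchor genes are in this list too, so these counts are not independent of those above.

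Transcription factors of squamous cells other than TP63 had a median of -0.01 over 18 genes at the floor, with 9 above the median of all genes. KLF5 and PITX1 were nearly level at 4544 and 4198 and 8963 and 9345 counts, while the homeobox gene MSX1 had 992 and 745. Among desmosome and junction genes DSP, desmoplakin, had 637 and 987 counts and PKP2, a plakophilin, 120 and 180, whereas JUP, plakoglobin, had 1629 and 1630. GJA1, a gap junction connexin, was lower with 378 and 163. The list had 2 of 8 genes higher and 2 lower by the 1.2-fold rule (25% each) and a median of 0.06. Over all genes 6.93% were higher and 15.2% lower by that rule.

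The other genes at the top came from several families. CACNA2D1, an accessory subunit of voltage-gated calcium channels, had 42 and 205 counts, a ratio of 5.07 (3.62 to 7.24). CADPS2, a factor of dense-core vesicle release, had 30 and 124 counts in its leading row, and RIMS1, a scaffold of the presynaptic release site, had 13 and 59. ARHGDIB, a gene best known from blood cells, had 5 and 86 counts, a ratio of 17.8 (7.36 to 56.4). The calcium and ion channel list as a whole had a median of -0.06, with 7 of 17 genes above the median of all genes. Of the 17, 2 were at least 2-fold higher and 0 lower, beside 0.572% and 0.743% of all genes.

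Immune recognition genes were another set among the highest. CD74, the invariant chain that escorts class II molecules, had 44 and 162 counts, and CIITA, the master regulator of class II genes, had 66 and 141. HLA-DRB1 followed with 585 and 826 counts, whereas HLA-DPB1 had 106 and 78 and HLA-DQB1 158 and 124. The class II list thus had 2 of 13 genes at least 2-fold higher and 0 lower, beside 0.572% and 0.743% of all genes. Its median was 0.18. Of 9 class II genes with 100 counts, 4 were higher by the 1.2-fold rule (44.4%) and 0 lower, beside 6.93% and 15.2% of all genes. TRIM22, an interferon-induced antiviral gene, had 44 and 156 counts, but the median of 21 interferon-stimulated genes was 0.05. The 1.2-fold rule called 6 of 16 interferon-stimulated genes higher (37.5%) and 1 lower (6.25%). GBP1, an interferon-induced GTPase, had 498 and 719 counts and IFIT2, an interferon-induced RNA-binding protein, 259 and 155.

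CFI, a protease of complement control, went from 390 to 868 counts, and CPB1, a carboxypeptidase, from 60 to 180. FAM134B, a receptor for autophagy of the endoplasmic reticulum, had 61 and 192 counts, and PCDH7, a protocadherin, 157 and 344. IL7R, a cytokine receptor, CPA4, a carboxypeptidase, and CHI3L1, a secreted glycoprotein, were singled out after their values were seen. They had 26 and 89, 23 and 85, and 19 and 67 counts.

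**Figure D2:**
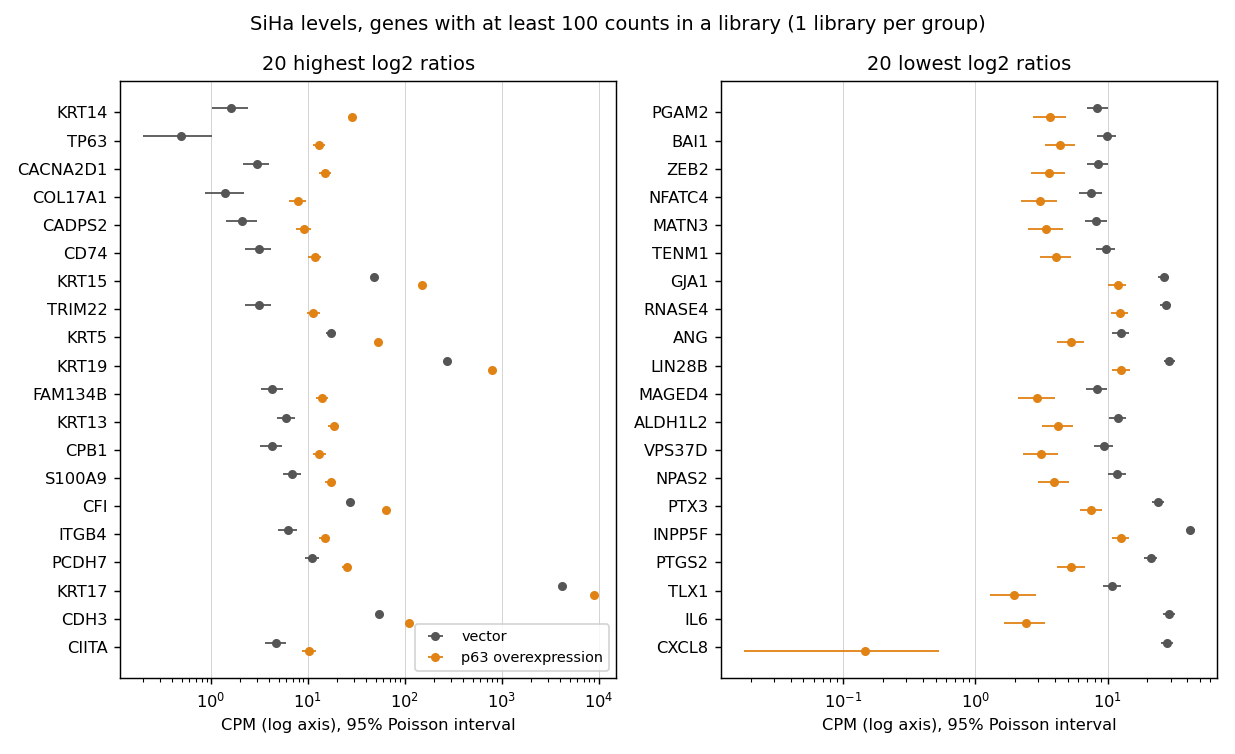
Level in CPM (log x axis) of the 20 genes with the highest and the 20 with the lowest log2 ratio among genes that reached 100 counts. Points are the 1 vector and the 1 overexpression library and bars are 95% Poisson intervals of the counts. KRT14 and TP63 lead the left panel, and the 2 counts of CXCL8 in the overexpression library stand far below all other points of the right panel.

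Chemokines that draw neutrophils and other leukocytes were the most prominent group of lower genes. CXCL8 had 401 and 2 counts, 193-fold lower (53.1 to 1601). CXCL1, CXCL2 and CXCL3, neighbouring paralogs that bind the same receptor, had 98 and 18, 87 and 24, and 46 and 6 counts, and reads can be shared among them. CCL20, which draws cells with the receptor CCR6, had 27 counts and 0. It was 8.67-fold lower if the 0 is set to a floor of 3 counts, and the lower 95% limit of the ratio was 6.58-fold. Not every chemokine was lower: CCL5 had 162 and 141 counts, CXCL16 155 and 170, CCL28 101 and 117, and CCL2 22 and 51.

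Some mediators of acute inflammation were lower as well. IL6, a cytokine that drives the acute phase, had 415 and 33 counts, 12.1-fold lower (8.49 to 17.8). PTGS2, the inducible cyclooxygenase of prostaglandin synthesis, had 302 and 73, 3.99-fold lower (3.08 to 5.22), and PTGER2, a prostaglandin receptor, had 23 and 2. PTX3, a pentraxin that binds microbes, had 344 and 103 counts, 3.22-fold lower (2.58 to 4.05). IL1A, an early cytokine, had 27 and 7 counts. SAA1 and CFB, acute phase and complement genes, were higher instead, at 101 and 198 and 473 and 610 counts. The prostaglandin and acute phase list as a whole had a median of -0.02, with 8 of 15 genes above the median of all genes. The 1.2-fold rule called 3 of 11 higher (27.3%) and 2 lower (18.2%), beside 6.93% and 15.2% of all genes.

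As a list, the cytokines and chemokines had 16 of 28 genes at the floor and a median of -0.21. Of these 16, 6 were at least 2-fold lower and 0 higher, beside 0.743% and 0.572% of all genes. Of the same 16, 4 were at the floor through the vector library alone. By the 1.2-fold rule 2 of 8 were lower (25%) and 1 higher (12.5%), beside 15.2% and 6.93% of all genes. The genes of the NF-kB pathway, the transcription factor that drives many of these cytokines, had a median of -0.05, as had all genes. Of 22, 0 were past 2-fold, beside 1.32% of all genes. By the 1.2-fold rule 5 of 19 were lower (26.3%) and 1 higher (5.26%), beside 15.2% and 6.93% of all genes. In this list NFKB2, a subunit, had 763 and 465 counts, and NFKBIZ, an inducible cofactor, had 114 and 54. BIRC3, an inhibitor of apoptosis, had 56 and 111 counts in 1 row and 44 and 45 in the other.

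The promoters of the lower cytokine genes are shown because they share a short motif, and those of 3 higher genes because they share another. Sequences are from RefSeq (GRCh38.p14) and cover the 150 bases before the annotated start, 5′ to 3′ on the gene's strand. Promoters were searched over 250 bases on both strands for GGNNTTNCC as an NF-kB motif, TGANTCA as an AP-1 motif and the p53 family half-site. In the first 7 sequences capitals mark the NF-kB motif. Overlapping matches run together.
CXCL8 (chr4:73740419-73740568, + strand): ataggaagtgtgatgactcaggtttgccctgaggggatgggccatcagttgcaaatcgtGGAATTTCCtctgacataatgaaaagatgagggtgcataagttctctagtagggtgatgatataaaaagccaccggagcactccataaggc
CXCL1 (chr4:73869243-73869392, + strand): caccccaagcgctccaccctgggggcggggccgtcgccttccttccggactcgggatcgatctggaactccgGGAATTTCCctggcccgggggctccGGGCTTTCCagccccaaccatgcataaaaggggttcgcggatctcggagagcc
CXCL2 (chr4:74099196-74099345, - strand): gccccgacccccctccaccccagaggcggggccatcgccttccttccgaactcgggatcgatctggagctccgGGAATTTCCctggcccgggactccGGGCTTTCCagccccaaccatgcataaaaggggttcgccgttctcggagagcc
CXCL3 (chr4:74038690-74038839, - strand): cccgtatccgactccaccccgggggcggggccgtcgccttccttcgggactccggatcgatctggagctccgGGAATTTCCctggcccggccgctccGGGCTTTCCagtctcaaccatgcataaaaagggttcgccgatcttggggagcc
CCL20 (chr2:227813692-227813841, + strand): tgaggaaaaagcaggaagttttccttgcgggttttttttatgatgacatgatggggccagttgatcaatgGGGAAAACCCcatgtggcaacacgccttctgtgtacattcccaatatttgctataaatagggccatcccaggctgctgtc
IL6 (chr7:22727050-22727199, + strand): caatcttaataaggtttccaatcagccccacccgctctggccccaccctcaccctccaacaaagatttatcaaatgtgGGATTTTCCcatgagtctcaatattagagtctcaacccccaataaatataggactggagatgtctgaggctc
PTX3 (chr3:157436700-157436849, + strand): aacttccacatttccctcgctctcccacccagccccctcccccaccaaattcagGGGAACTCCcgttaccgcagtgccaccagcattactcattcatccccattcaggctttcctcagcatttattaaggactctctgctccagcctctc

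The motif lay 91 to 83 bases before the start of CXCL8, 72 to 64 before that of IL6 and 96 to 88 before that of PTX3. CXCL1, CXCL2 and CXCL3 each had 2 matches, GGAATTTCC and GGGCTTTCC, in stretches that are alike between these paralogs. In CCL20, where 2 matches overlap, and in PTX3 the match is on the opposite strand. All 5 chemokine genes at least 2-fold lower, with IL6 and PTX3, held the motif, and PTGS2 and PTGER2 did not in this window. Over all lower genes with a promoter the motif was no more common than elsewhere: 8 of 45 (17.8%) held it, beside 16.2% of the 5651 promoters of genes at the floor and 14.8% of all 27305. The AP-1 motif was in 3 of 45 lower genes, CXCL8, GJA1 and NKX2-2 (6.67%), in 4 of 28 higher genes (14.3%) and in 4.37% of genes at the floor.

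In the 3 promoters of higher genes that follow, capitals mark the p53 family half-site.
COL17A1 (chr10:104085881-104086030, - strand): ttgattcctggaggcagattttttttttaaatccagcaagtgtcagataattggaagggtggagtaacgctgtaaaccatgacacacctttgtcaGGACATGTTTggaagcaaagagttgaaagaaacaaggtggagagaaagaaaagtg
KRT5 (chr12:52520395-52520544, - strand): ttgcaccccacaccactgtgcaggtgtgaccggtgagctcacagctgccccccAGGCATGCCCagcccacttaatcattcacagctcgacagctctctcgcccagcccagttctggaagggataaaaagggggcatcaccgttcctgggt
IL7R (chr5:35856741-35856890, + strand): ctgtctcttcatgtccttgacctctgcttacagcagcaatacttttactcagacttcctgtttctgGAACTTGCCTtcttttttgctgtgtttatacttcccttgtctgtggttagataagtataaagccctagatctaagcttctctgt

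Among the 28 higher genes with a promoter entry, 8 (28.6%) held the half-site within 250 bases, namely ARHGDIB, CFI, COL17A1, CPA4, FCRLB, IGSF23, IL7R and KRT5. Among lower genes 1 of 45 (2.22%) did, TENM1, and among genes at the floor 5.06%. Promoters matched for 28 of 40 higher and 45 of 52 lower genes, and KRT14, KRT15, KRT17, KRT19, KRT13 and ITGB4 were among those without an entry. A match is a description of letters and does not show binding.

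The remaining lower genes came from several families. TLX1, a homeobox gene, had 154 and 27 counts, 5.50-fold lower (3.63 to 8.61). INPP5F, a phosphoinositide phosphatase, had 601 and 172 counts in 1 row and 18 and 23 in the other, so only its more abundant row was lower. NPAS2, a clock transcription factor, had 167 and 54 counts, while the 13 clock genes together had a median of -0.03.

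LIN28B, which keeps let-7 microRNAs from being processed, had 416 and 174 counts, and ALDH1L2, a mitochondrial folate enzyme, 170 and 58. The ribonucleases ANG and RNASE4, which are transcribed from a common promoter region and can share reads, had 179 and 72 and 392 and 169. TENM1, a teneurin, had 138 and 56 counts, BAI1, an adhesion receptor, 140 and 60, and NFATC4, a calcium-regulated transcription factor, 106 and 42. VPS37D, a subunit of the sorting complex of endosomes, had 133 and 43 counts, MATN3, a cartilage matrix protein, 117 and 47, and PGAM2, a glycolytic enzyme of muscle, 119 and 50. MAGED4 had 118 and 40 counts and its near-identical copy MAGED4B 125 and 62, and reads of this pair cannot be told apart.

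Separate rows of a gene gave like ratios where counts were high. Of 1842 genes with 2 or more rows at 100 counts, 0 had rows 2-fold apart. Rows of a gene overlap and share reads, so part of this likeness is built in. The widest gap was 0.74 on the log2 scale, in NELL2.

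In the authors' deposited table, 9 genes were higher and 7 lower at an adjusted p below 0.05. The higher genes in the authors' deposited table were TP63, KRT14, ARHGDIB, CCDC102B, RIMS1, CADPS2, COL17A1, CACNA2D1 and CD74. The lower ones in the authors' deposited table were CCL20, CXCL8, IL6, CXCL3, TLX1, CXCL1 and PTGS2. These values come from 1 library per group and contain no spread between replicates.

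Below 2-fold, families of genes were compared with the median of all genes. A list was described as shifted where at least 6 members were at the floor and at least 80% of them lay on 1 side of that median. Of 59 lists with 6 such members, 8 were shifted higher and 4 lower. The 8 were keratins, squamous differentiation, S100 genes, epithelial identity, class I antigen presentation, the proteasome, mitochondrial ribosomal proteins and respiratory complex I. The 4 lower ones were cytosolic ribosomal proteins, immediate early genes, amino acid and one-carbon genes, and mitosis genes. Lists share members, and genes of 1 family are not replicates.

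**Figure D3:**
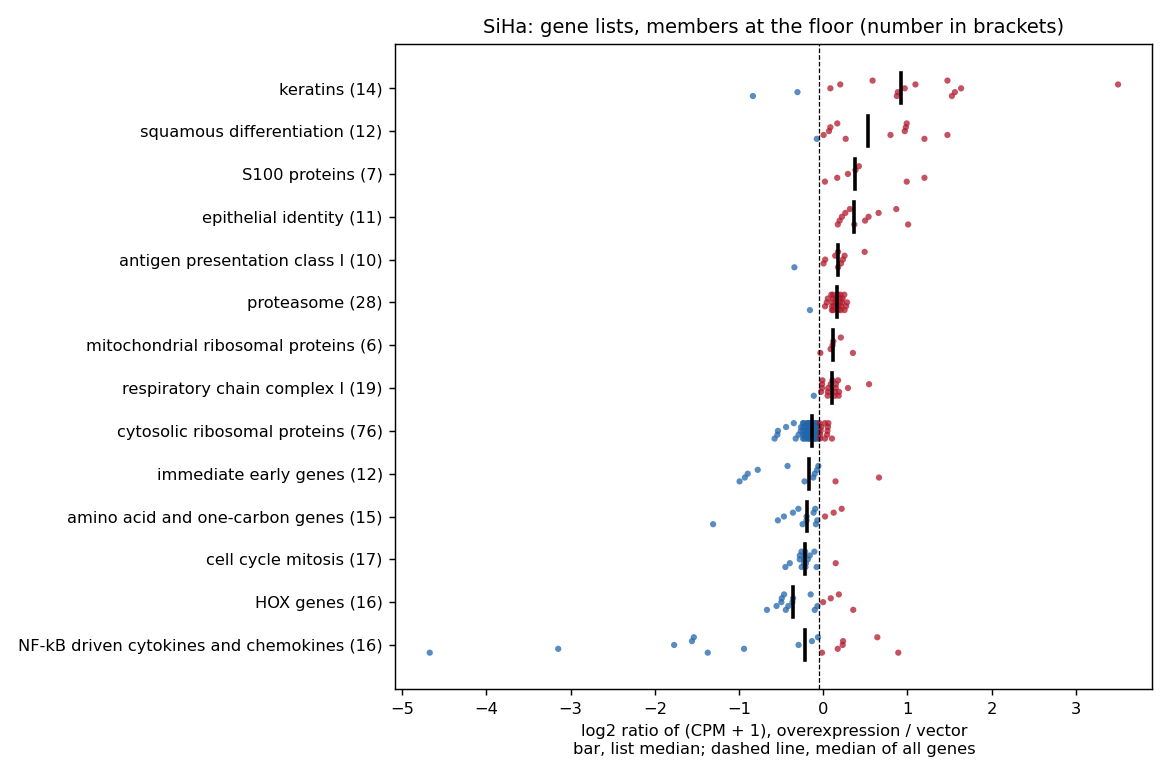
Log2 ratio of CPM plus 1 (overexpression over vector, x axis) for members at the floor of 14 gene lists, 1 point per gene, red above and blue below the median of all genes (dashed line). Bars are list medians. Proteasome genes sit close together to the right of the line and cytosolic ribosomal protein genes to its left, while keratins spread to 3.50 and cytokines to -4.67.

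Proteasome subunits, which build the particle that degrades tagged proteins, lay above the median of all genes by a small and even margin. Of 28 genes 27 lay above the median of all genes, with a median of 0.16, the highest PSMB6 at 4472 and 5248 counts and the lowest PSMD1 at 3825 and 3302. These are abundant genes, 25 of them between 100 and 1000 CPM, where the median of 1186 genes was 0.02 and 62.8% lay above the median of all genes. Only PSMB3 and PSMB6 were higher by the 1.2-fold rule (7.14%), a share near the 6.93% of all genes. By the same rule 0 were lower, beside 15.2% of all genes. PSMB10, an inducible proteasome subunit counted with class I presentation, had 2510 and 3406 counts. Of 10 class I genes 9 lay above the median of all genes (median 0.18), and HLA-C was the exception with 2504 and 1900.

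The energy and protein synthesis machinery went in both directions. Respiratory complex I, which feeds electrons from NADH into the chain, had 18 of 19 genes above the median of all genes and a median of 0.11. NDUFS4 led it with 1215 and 1713 counts. Complexes III to V had 18 of 25 above and a median of 0.04, and mitochondrial ribosomal proteins 6 of 6 above and a median of 0.12. These 6 are only the genes of that name with a row. The median level of complex I genes was 128 CPM and that of class I genes 121 CPM. At 100 to 1000 CPM, 62.8% of genes lay above the median of all genes. Cytosolic ribosomal protein genes, by contrast, had 64 of 76 below the median of all genes and a median of -0.13. RPL31 was the lowest of them with 14855 and 9586 counts, and by the 1.2-fold rule 0 of 76 were higher and 8 lower (10.5%), a smaller share than the 15.2% of all genes. They make up 60 of the 128 genes above 1000 CPM, whose median was -0.06.

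Several immediate early genes, which signals switch on within minutes, were lower but did not reach the 2-fold rule. ATF3 was 2.30-fold lower by its counts and missed that rule only through the pseudocount. EGR1 had 1038 and 518 counts, JUN 3640 and 2040, ATF3 105 and 44, NR4A1 333 and 166, and KLF6 577 and 411. JUNB, with 6493 and 5829 counts, and MCL1, with 2176 and 1930, differed little. CYR61, a matricellular YAP target, was higher instead, with 4047 and 6177 counts. Of 12 genes 10 lay below the median of all genes, the median was -0.17 and 0 passed 2-fold, beside 1.32% of all genes. The 1.2-fold rule called 5 of 11 lower (45.5%) and 1 higher (9.09%), beside 15.2% and 6.93% of all genes. With the median row of each gene in place of the highest, or with no floor, the list no longer met the 80% rule.

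Genes of mitosis lay slightly below the median of all genes. CDK1, the kinase that starts mitosis, had 2042 and 1437 counts, and MKI67, the proliferation marker, 3777 and 2760. TOP2A, the topoisomerase of dividing cells, had 10063 and 8539, and CDC20, an activator of the anaphase ligase, was the exception with 8049 and 8595. Of 17 genes 16 lay below the median of all genes, with a median of -0.22, and 4 were lower by the 1.2-fold rule (23.5%, beside 15.2% of all genes). Genes of DNA replication had a median of -0.13, with 13 of 18 below and 2 lower by that rule (11.1%), a smaller share than that of all genes.

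CDKN1A, a cyclin-dependent kinase inhibitor induced by p53, had 831 and 1233 counts, and PLK2, another p53 target, 1116 and 1627. The p53 target list had 0 of 14 past 2-fold, beside 1.32% of all genes, and a median of 0.15. The 1.2-fold rule called 2 of 13 higher (15.4%, beside 6.93% of all genes) and 0 lower.

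Metabolic lists were lower in part of their members. Among hypoxia and glycolysis genes 10 of 24 were lower (41.7%) and 1 higher (4.17%) by the 1.2-fold rule, and the median was -0.22. Over all genes these shares were 15.2% and 6.93%. HK2, a hexokinase, had 2617 and 1795 counts, PDK1, a kinase that restrains pyruvate oxidation, 1400 and 856, and NDRG1, a hypoxia-induced gene, 4116 and 2883. GAPDH, with 131263 and 133013 counts, and ENO1, with 97309 and 100579, were nearly level. Of 15 amino acid and one-carbon genes 12 lay below the median of all genes (median -0.20), with ASNS, asparagine synthetase, at 460 and 317 counts. Of the 12, 1 was at the floor through the vector library alone, and without it 11 of 14 lay below (78.6%), short of the 80% rule, as the list also was at a floor of 10 CPM. CHAC1, a glutathione-degrading enzyme of the stress response, had 129 and 59 counts.

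HOX genes, which record position along the body axis, had 12 of 16 below the median of all genes and a median of -0.36, short of the 80% rule. HOXB8 had 292 and 172 counts, HOXB3 380 and 245, and HOXD13 1256 and 936, while HOXA13 had 95 and 121. By the 1.2-fold rule 7 of 12 were lower (58.3%) and 1 higher (8.33%), beside 15.2% and 6.93% of all genes.

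The growth factor, TGF-beta and BMP, Notch and WNT lists held genes of both directions, with more lower than higher by the 1.2-fold rule. In that order 31.25%, 30.4%, 38.5% and 25% were lower, and 12.5%, 13.0%, 7.69% and 0% higher. Over all genes 15.2% were lower and 6.93% higher. In the growth factor list IGF1R, the insulin-like growth factor receptor, had 615 and 364 counts and its binding protein IGFBP5 341 and 196, whereas IGFBP7 had 505 and 727. BMP2, a bone morphogenetic protein, had 482 and 259 counts, and its target ID4 365 and 192, within a list whose median was -0.04. Notch genes had a median of -0.14, with the targets NRARP and HEY1 at 572 and 327 and 761 and 483 counts and the ligand JAG1 at 86 and 128. SFRP1, a secreted WNT antagonist, had 264 and 145 counts. The large families of ZNF zinc fingers (203 genes) and solute carriers (134 genes) had medians of -0.05 and -0.04, equal to that of all genes within 0.01.

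Markers of the labelled cell type and of other cell types were summed for each library. The epithelial markers KRT8, KRT18, KRT19 and EPCAM were present, at a summed 2519 CPM with the vector and 4574 with overexpression, and CDH1 had no row here. The fibroblast list had 6 of 7 genes with a row and 5 at the floor, summed to 37.6 and 27.2 CPM. Of the leukocyte list 4 of 6 had a row and 2 were at the floor, at 126 and 137 CPM, nearly all CD14 and CD68, with CD3E at 4 and 4 counts. Endothelial markers summed to 12.1 and 10.9 CPM, with VWF at 0 and 9 counts, and erythroid markers to 9.29 and 6.21. The part of these levels in the results was not tested. With 1 bulk library per group, fewer cells with a transcript and less RNA per cell cannot be told apart.

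The genes called in SiHa were then set beside the ME-180 knockdown experiment, which shares no library with them and was scaled separately, so levels are not compared between the lines. The delta N alpha row of TP63 had 5619 counts in the ME-180 control and 6 in the knockdown, the direction of the labels. Of the 40 genes higher in SiHa 32 had an ME-180 row and 23 reached 1 CPM there. In the knockdown library 14 of these 23 were at least 2-fold lower (60.9%) and 5 higher (21.7%). Over 6783 ME-180 genes 20.6% were lower and 28.2% higher. Of the 23, 8 reached 1 CPM in the control alone, where a gene has to be lower in the knockdown, and 3 in the knockdown alone, and these hold 7 of the 14 and 3 of the 5. Among the 12 genes with 1 CPM in both libraries 7 were lower (58.3%) and 2 higher, beside 13.3% and 25.4% of 5228 such genes. The 14 genes, TP63 itself among them, are 1% of the 1400 lower in ME-180. KRT5, KRT14, COL17A1, KRT17, ITGB4 and ARHGDIB were among them, the last with 3415 counts in the ME-180 control and 4 in the knockdown library. In the same order KRT5 had 679522 and 239 counts and KRT14 46445 and 30. CACNA2D1 and CADPS2 were higher in the knockdown instead, with 0 and 166 and 9 and 66 counts in ME-180. With 1 library per group, how far differences of this size follow p63 itself was not tested.

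Of the 52 genes lower in SiHa 43 had an ME-180 row and 34 reached 1 CPM. There 20 of 34 (58.8%) were at least 2-fold higher in the knockdown library and 5 (14.7%) lower. Of the 34, 15 reached 1 CPM in the knockdown alone, where a gene has to be higher, and 14 of these are among the 20. Among the 17 genes with 1 CPM in both libraries 6 were higher (35.3%) and 3 lower (17.6%), not far from the 25.4% and 13.3% of all such genes, so the share of 58.8% rests on the genes near 0 in the control. The 20 are 1.04% of the 1914 higher in ME-180. LIN28B, ALDH1L2 and ZEB2 were among these 14, with 2 and 1981, 4 and 2501, and 1 and 223 counts in ME-180, and FN1, with 24 and 140, had 1 CPM in both. PTGS2 and CCL20 were lower in both experiments, with 132 and 5 and 14 and 0 counts in ME-180. CXCL3, PTX3 and PTGER2 were higher in the knockdown instead, with 0 and 12, 0 and 30, and 27 and 80. All of these but PTGER2 reached 1 CPM in 1 ME-180 library alone. CXCL8, IL6, CXCL1 and CXCL2 were below 1 CPM in both ME-180 libraries and enter neither count.

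**Figure D4:**
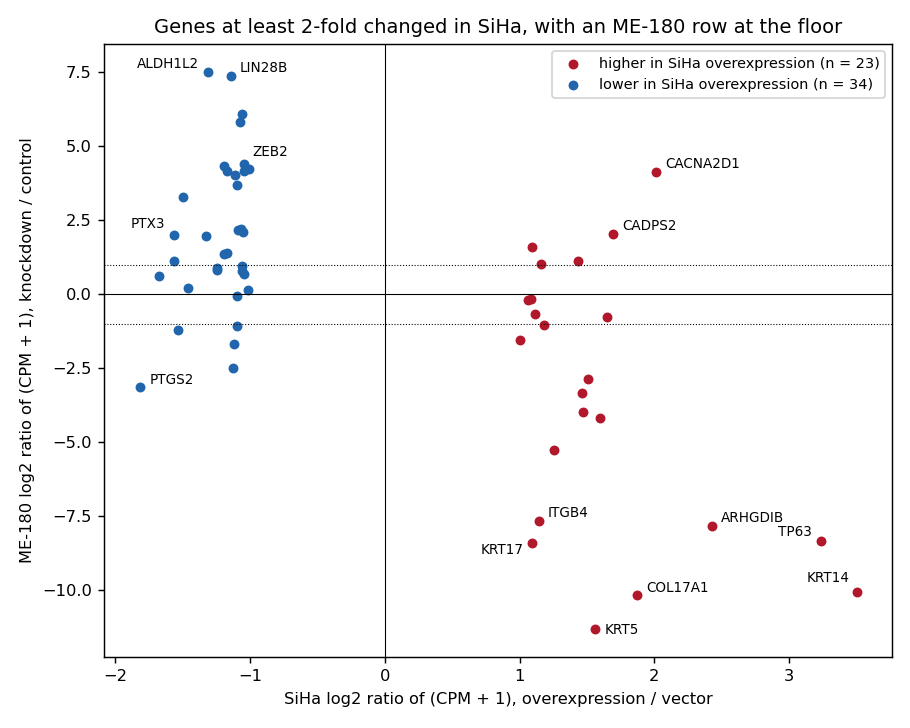
SiHa log2 ratio (overexpression over vector, x axis) against ME-180 log2 ratio (knockdown over control, y axis), both of CPM plus 1, for 23 genes higher and 34 lower in SiHa that have at least 1 CPM in ME-180. Dotted lines mark 2-fold in ME-180. Basal keratins and COL17A1 lie at the lower right and LIN28B and ALDH1L2 at the upper left.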

How the data were processed

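RNA of 2 SiHa libraries and, for comparison, 2 ME-180 libraries was used, with groups from the sample titles. The authors deposited whole-number counts per RefSeq transcript, a log2 fold change and p-values, per the file headers. The submitters' processing notes name TopHat, Cufflinks, DESeq2 and hg19, without roles, and the sources used here give neither counter nor strand setting, so overlapping and antisense genes cannot be told apart. The SiHa table holds 16600 rows. In the authors' deposited table the smallest p-value was multiplied by 29802 on adjustment, more than the rows at hand, so genes without a row were not analysed here. For 31 rows a spreadsheet date was replaced by the symbol of the RefSeq identifier.

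Ratios used a pseudocount of 1 CPM. Intervals at 95% were exact Poisson (levels) and conditional binomial (ratios), computed with scipy 1.17.1. Named genes were TP63, the 20 highest and 20 lowest log2 ratios among genes that reached 100 counts, small RNAs and unnamed loci excepted, and per list all members past 2-fold or up to 5 with the largest ratios. Members and lists were chosen with earlier results of these data known. In all, 67 lists were measured, and those the text does not describe had no group shift or fewer than 6 members at the floor. Alternatives used edgeR 4.0.16 and DESeq2 1.42.0 for scaling only. The rules were run on simulated Poisson counts with planted differences and no spread between libraries. That run cannot show how many calls here are false. The p63 peaks of ME-180 were not used here, and a few genes of the lists are not reported here by name. Nearly level genes and genes under 100 counts outside this rule (such as EVPL, PPL, SPINT1, CCL5, JUNB, MCL1, TOP2A, GAPDH, ENO1, DST, IL1A, RIMS1 and ARHGDIB) were chosen after their values were seen.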

Additional observations from a re-analysis of the deposited data

How the results depend on the processing

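The counts past 2-fold depended on the pseudocount and the floor: 113 higher and 227 lower at a pseudocount of 0.1 CPM, 14 and 6 at 5 CPM, and 18 and 14 at a floor of 10 CPM, beside 40 and 52. Without the minimum of 100 counts, 1191 genes were at least 1.2-fold lower, beside 779. Both scaling alternatives gave 49 and 49 past 2-fold, with all 40 higher and 49 of the 52 lower genes kept. Summing the rows of a gene gave 47 and 67, and taking its median row 36 and 54. The 12 lists shifted as a group kept the sign of their median in every alternative, and no named gene with a log2 ratio past 1.2-fold changed sign. At a floor of 10 CPM the Notch, collagen and HOX lists also met the 80% rule on the lower side and the p53 target and plasminogen and serpin lists on the higher side, the last also with summed rows. An alternative chosen after seeing the data kept members with 1 CPM in both libraries: 11 of the 12 lists still met the rule, all but the amino acid list, and the plasminogen and serpin list (11 of 13) met it too. With no floor the tubulin list met it on the higher side. No paired analysis was possible because each group has 1 library, and no library could be left out. At the depth of these libraries 3 counts are 0.211 CPM and 0.219 CPM, which limits what can be said of genes near 1 CPM.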
